A study of Mus musculus with 5 samples.

Results

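The genes described here are Fgfr1 and Fgfr4 (receptors for fibroblast growth factors, FGFs), Met (the receptor for hepatocyte growth factor, HGF), the syndecans Sdc3 and Sdc4, and Spry1 (Sprouty1). They were taken by gene symbol from a table of counts per gene, and they are 6 of the 11194 genes in it. All 6 have a row there and all passed the filter on low counts. RNA was recovered from lysates of mouse skeletal muscle stem cells with an antibody against Staufen1, a protein that binds double-stranded RNA, and then sequenced (RIP-seq). 2 libraries were labelled Stau-/- (knockout 1 and 2) and 3 were labelled Stau+/+ (wild type 1 to 3). No treatment, age, strain or description of the mutant allele is given in the sources used here, and all 5 libraries are precipitates of the same antibody. No library of input RNA was used, so a transcript that was scarcer in the cells and one that was recovered less well enter the same count, and fewer cells of a type cannot be told apart from less RNA per cell.

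FGF receptors and Met are receptor tyrosine kinases of the cell surface that signal through Ras and the ERK kinases. FGF and HGF are held and presented to them by heparan sulfate, the sugar chains that syndecans carry. Sprouty1 blunts this signalling inside the cell. In mouse muscle, syndecan-3, syndecan-4 and Met are known as surface markers of the stem cells, and Sprouty1 is known to be needed for their return to quiescence after injury.

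In the libraries labelled knockout, Spry1, Sdc4 and Fgfr4 were lower, and Fgfr1, Met and Sdc3 passed the test in neither direction. Spry1 was at 0.403 times, Sdc4 at 0.522 times and Fgfr4 at 0.577 times its mean level in the libraries labelled wild type. 3 of 6 genes were thus called lower in the libraries labelled knockout, where 1.05% of all 11194 genes were, and 0 of 6 were called higher, where 1.00% of all genes were. A gene was called where edgeR's quasi-likelihood test, adjusted over all genes by the Benjamini-Hochberg method, gave p under 0.05, which 2.05% of genes met in either direction. The 6 genes were chosen with earlier results of these data known, so their count against that background is a description. Their median log2 fold change, knockout over wild type, was -0.71, beside -0.003 for all genes tested.

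The stretches of DNA just before the start sites of the 3 called genes are shown because all 3 were called lower in the libraries labelled knockout. The order of the single libraries by level was not the same for these genes. They come from RefSeq on build GRCm38 (mm10) and read 5′ to 3′ on the gene's own strand, and capitals mark the GC box GGGCGG on either strand. Each stretch stops where the RefSeq start or an exon of the deposited table begins, which leaves 250 bases for Spry1 (chr3:37639697-37639946, plus strand), 250 for Sdc4 (chr2:164443189-164443438, minus strand) and 72 for Fgfr4 (chr13:55152568-55152639, plus strand).
Spry1: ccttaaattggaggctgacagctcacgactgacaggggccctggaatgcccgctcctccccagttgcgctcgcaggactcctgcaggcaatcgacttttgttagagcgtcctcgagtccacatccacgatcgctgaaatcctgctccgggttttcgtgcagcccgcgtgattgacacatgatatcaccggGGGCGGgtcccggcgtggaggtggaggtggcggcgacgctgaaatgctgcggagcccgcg
Sdc4: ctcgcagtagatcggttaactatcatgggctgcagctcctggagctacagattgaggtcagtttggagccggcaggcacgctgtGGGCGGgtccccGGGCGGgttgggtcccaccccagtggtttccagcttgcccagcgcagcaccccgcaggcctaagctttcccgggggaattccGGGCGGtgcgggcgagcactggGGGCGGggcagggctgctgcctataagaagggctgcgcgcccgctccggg
Fgfr4: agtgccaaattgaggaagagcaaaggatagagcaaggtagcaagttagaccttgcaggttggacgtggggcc
Sdc4 had 4 GC boxes, Spry1 had 1 and Fgfr4 had 0, and 32.7% of all 32851 promoters had at least 1 in a window of 250 bases. The E-box CAGCTG, the form preferred by MyoD, had 0 matches in each of the 3 stretches (13.0% of promoters over 250 bases), and so did the AP-1 site TGACTCA (4.46%) and the EGR site GCGTGGGCG (0.54%). The ETS core CCGGAA had 1 match, in Sdc4, where it overlaps a GC box (12.0% of promoters). Over the shorter window of Fgfr4, the share of promoters with a match was 7.35% for the GC box and 3.35% for the E-box. The bases were 68.0% G or C in Sdc4 and 62.4% in Spry1, beside a median of 52.4% over all promoters, and 51.4% in Fgfr4, beside 50.0%. The genes that were not called had GC boxes too, 3 in the matching stretch of Sdc3 and 1 in that of Met. The stretches lie outside the exons that were counted (that of Sdc4 lies within the span of its gene in the deposited table), and a match in them is a description of letters only.

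Library depth and labels bear on every value below. Totals were 3091302 to 9370244 counts in the libraries labelled knockout and 33846391 to 105473455 in those labelled wild type, so depth and genotype cannot be told apart by comparing the groups. Stau1 itself was not detectably lower where it was labelled knocked out, with 109.0 and 110.7 CPM in knockout 1 and 2 and 104.3, 126.8 and 118.2 CPM in wild type 1 to 3 (log2 fold change -0.08, edgeR adjusted p = 0.847). CPM stands for counts per 1e6 on library totals scaled by the TMM method. Counts over all exons need not show the loss of part of a gene, and every direction here rests on the labels. Pax7, which defines muscle stem cells, had 251.7 and 180.7 CPM in the libraries labelled knockout, against 211.3, 263.2 and 241.5 CPM in those labelled wild type. Myod1, the transcription factor of committed muscle precursors, named after its values were seen, was called lower, with 300.2 and 457.1 CPM in knockout 1 and 2, against 954.4, 800.5 and 672.0 CPM in wild type 1 to 3 (log2 fold change -1.10, edgeR adjusted p = 0.0252), and its part in the values of the 6 genes was not tested. The labels do not say whether each library is a different animal, so p-values measure the spread between these libraries, which may be technical. Over all genes, log2 CPM correlated at 0.918 between knockout 1 and 2 and at 0.966 to 0.967 between wild type libraries. Across the groups it correlated at 0.900 to 0.942. Knockout 1 was closer to each wild type library (0.925 to 0.942) than to knockout 2.

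Markers of other cell types moved with the groups as well. The summed level of 12 endothelial markers, all measured, was 2988 and 3232 CPM in the libraries labelled knockout, against 1397 to 1890 CPM in those labelled wild type. 5 of the 12 were called higher, where 1.00% of all genes were. Collagen-producing mesenchymal cells of muscle (fibro-adipogenic progenitors) had 10 markers, of which 2 were called lower and 1 higher, and the sums were 1499 and 1565 CPM in the libraries labelled knockout, against 2043 to 2941 CPM in those labelled wild type. For 10 muscle stem cell markers they were 2013 and 1895 CPM in knockout 1 and 2, against 2655 to 2862 CPM in wild type, a ratio of 0.716, and 0 of the 10 passed the test. 4 of 6 red blood cell genes were measured and summed to 471.3 and 805.2 CPM in knockout 1 and 2, against 215.5 to 295.1 CPM in wild type. 3 of these 4 were called higher. 9 of 12 muscle fibre genes were measured and summed to 405.0 CPM in knockout 1 and 2531 CPM in knockout 2, against 492.3 to 565.0 CPM in wild type. 1 of these 9 was called higher. Pericyte markers (9 of 9 measured) summed to 1682 and 1807 CPM in knockout, against 1373 to 1639 CPM in wild type, while macrophage (7 of 8) and Schwann cell (7 of 7) sums overlapped between the groups. 1 Schwann cell marker was called higher, and no pericyte or macrophage marker was called. No measured marker was at 0 in any library. The part of these cell types in the values of the 6 genes was not tested.

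Spry1 encodes Sprouty1, the intracellular inhibitor of receptor tyrosine kinase signalling. Its gene lies on chromosome 3 at 37639947 to 37644598 (plus strand, mm10) in 2 exon blocks. Its level was 208.6 and 129.5 CPM in the knockout pair, against 504.5, 336.9 and 415.7 CPM in wild type 1 to 3. Every library labelled knockout lay below every library labelled wild type, and knockout 2 was the lowest of all. The counts behind these values were 1992 and 407 in knockout 1 and 2 and 11077 to 52155 in wild type. Means were 169.0 ± 56.0 CPM (SD, n = 2) in knockout and 419.0 ± 83.9 CPM (SD, n = 3) in wild type. In edgeR the log2 fold change came to -1.30 ± 0.24 (SE), with a 95% interval of -1.82 to -0.79 and an adjusted p of 0.0165. It ranked 167 of 11194 genes from the lowest log2 fold change. Spry1 was the only 1 of the 6 genes whose level followed the order of library totals through all 5 libraries, as did 3.33% of all genes in the same direction. With every library thinned to the total of the shallowest, its log2 fold change was -1.32 and its edgeR adjusted p 0.00847. Thinning keeps each gene's expected share of its library, so the fold change was bound to stay near -1.30. Whether other differences between libraries that go with depth play a part was not tested.

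Sdc4 encodes syndecan-4, a heparan sulfate proteoglycan of the cell surface that also takes part in focal adhesions. It lies on chromosome 2 at 164424247 to 164443887 (minus strand, mm10) in 6 exon blocks. Its level was 970.7 and 1133 CPM in knockout 1 and 2, against 2314, 1757 and 1976 CPM in wild type 1 to 3. The groups did not overlap, and knockout 1, not knockout 2, was the lowest. The counts were 9269 and 3563 in knockout 1 and 2 and 57769 to 239200 in wild type, the deepest of the 6 genes. Means were 1052 ± 115.1 CPM (SD, n = 2) in knockout and 2016 ± 280.6 CPM (SD, n = 3) in wild type. In edgeR the log2 fold change came to -0.94 ± 0.19 (SE), with a 95% interval of -1.35 to -0.53 and an adjusted p of 0.0251.

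Fgfr4, one of the main FGF receptors of muscle precursor cells, lies on chromosome 13 at 55152640 to 55168759 (plus strand, mm10) in 19 exon blocks. Its level was 297.2 and 242.7 CPM in knockout 1 and 2, against 457.2, 459.4 and 487.3 CPM in wild type 1 to 3. The wild type libraries lay close together, with a range of 0.09 on the log2 scale that was narrower than that of all but 3.22% of genes, and both knockout libraries were below them. Means were 270.0 ± 38.5 CPM (SD, n = 2) in knockout and 468.0 ± 16.8 CPM (SD, n = 3) in wild type. In edgeR the log2 fold change came to -0.79 ± 0.18 (SE), with a 95% interval of -1.18 to -0.40 and an adjusted p of 0.0425.

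Fgfr1, the other main FGF receptor of these cells, did not show a difference of that size. It lies on chromosome 8 at 25513654 to 25575714 (plus strand, mm10), and 164 of its exonic bases lie under Gm16159, a gene model on the other strand that had 3.98 and 6.999 CPM in knockout and 1.25 to 5.90 CPM in wild type. Fgfr1 had 828.7 and 774.9 CPM in knockout 1 and 2, against 743.2, 971.4 and 830.0 CPM in wild type 1 to 3. Both knockout libraries fell within the range of the wild type libraries. Means were 801.8 ± 38.01 CPM (SD, n = 2) in knockout and 848.2 ± 115.2 CPM (SD, n = 3) in wild type. Its log2 fold change was -0.08 ± 0.18 (SE) at an edgeR adjusted p of 0.846, and the 95% interval of -0.47 to 0.31 does not reach the value of Fgfr4.

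Met, the receptor tyrosine kinase for HGF, also overlapped between the groups. It lies on chromosome 6 at 17463800 to 17573980 (plus strand, mm10) in 22 exon blocks. Its level was 45.7 and 39.8 CPM in knockout 1 and 2, against 43.6, 39.5 and 51.6 CPM in wild type 1 to 3. Means were 42.7 ± 4.17 CPM (SD, n = 2) in knockout and 44.9 ± 6.15 CPM (SD, n = 3) in wild type. Its log2 fold change was -0.07 ± 0.23 (SE) at an edgeR adjusted p of 0.903, and the 95% interval ran from -0.56 to 0.42.

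Sdc3, which encodes the other syndecan known from muscle stem cells, stood between these groups of genes. It lies on chromosome 4 at 130792537 to 130826319 (plus strand, mm10) in 7 exon blocks. Its level was 29.1 and 17.2 CPM in knockout 1 and 2, against 36.8, 31.1 and 41.4 CPM in wild type 1 to 3. The groups did not overlap, but knockout 1 lay only just under wild type 2, and the value of knockout 2 rests on 54 counts. Means were 23.1 ± 8.44 CPM (SD, n = 2) in knockout and 36.4 ± 5.21 CPM (SD, n = 3) in wild type. Its log2 fold change was -0.62 ± 0.28 (SE), with an edgeR p of 0.0438 before adjustment and 0.229 after it. Its 95% interval of -1.23 to -0.02 holds the values of Sdc4 and Fgfr4, so a difference of their size is not excluded for Sdc3. The 2 knockout libraries differed by 0.76 on the log2 scale for Sdc3 and by 0.69 for Spry1, more than for 77.1% and 73.6% of all genes. In all, groups did not overlap for 4 of the 6 genes, each time with knockout lower, against 20.4% of all genes in that direction and 38.4% in either.

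**Figure D1:**
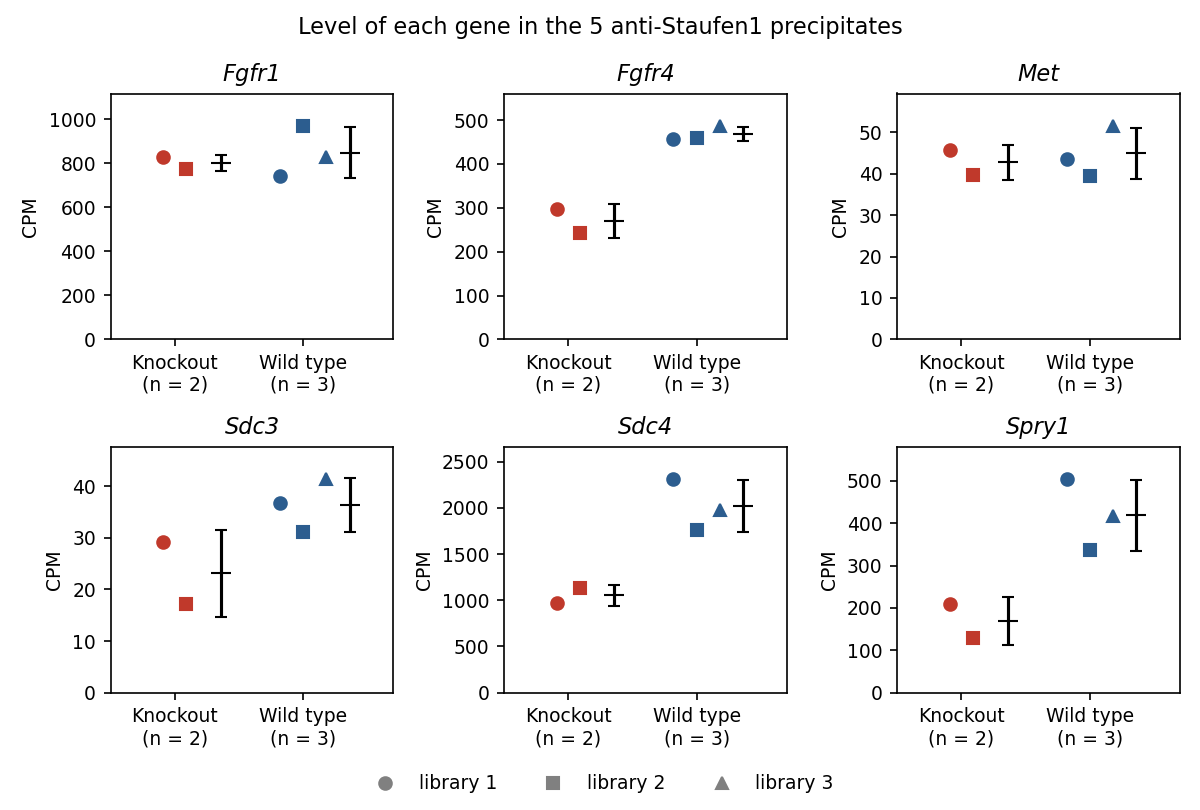
Level in CPM (vertical axes, from 0) of the 6 genes in each precipitate, libraries labelled knockout on the left in red and libraries labelled wild type on the right in blue, with the library number as the marker shape and the group mean and SD in black. Spry1, Sdc4, Fgfr4 and Sdc3 have every knockout library below every wild type library, while the groups overlap for Fgfr1 and Met.

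The calls rested on few libraries. Spry1, Sdc4 and Fgfr4 were all called without wild type 2, and all 3 lost the call when wild type 1, wild type 3 or knockout 2 was left out. When knockout 1 was left out, Spry1 alone kept it. With a library left out, the log2 fold change ranged from -1.69 to -1.01 for Spry1, from -1.05 to -0.82 for Sdc4 and from -0.95 to -0.65 for Fgfr4, with edgeR adjusted p up to 0.0934, 0.0954 and 0.186. That of Sdc3 ranged from -1.08 without knockout 1 to -0.32 without knockout 2. By limma-voom 0 of the 6 genes was called, with log2 fold changes of -1.24 for Spry1, -0.95 for Sdc4 and -0.77 for Fgfr4 and adjusted p of 0.0865, 0.0592 and 0.121. With library totals in place of TMM factors the edgeR adjusted p of Fgfr4 was 0.0528 at a log2 fold change of -0.75.

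**Figure D2:**
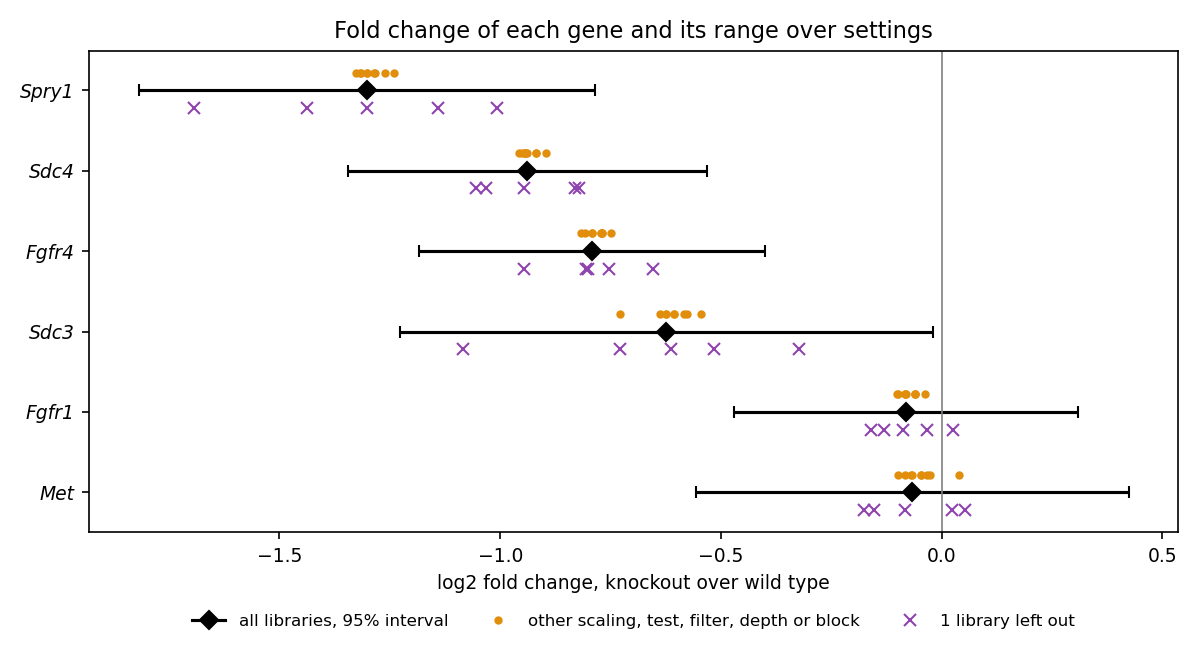
Log2 fold change, knockout over wild type (horizontal axis), of the 6 genes with its 95% interval in black, and its value under each other setting in orange and with 1 library left out in purple. Spry1, Sdc4, Fgfr4 and Sdc3 lie below 0 in every setting drawn, whereas the points of Fgfr1 and Met fall on both sides of 0.

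Levels of different genes were compared per length, as CPM per kilobase of exon in the deposited table. Exon lengths ran from 2547 bases for Sdc4 to 8120 bases for Fgfr1, and reads from oligo(dT)-primed RNA need not cover a long transcript evenly. Sdc4 was the highest of the 6 in every library, at 413.1 ± 45.2 CPM per kilobase in knockout (SD, n = 2) and 791.3 ± 110.2 in wild type (SD, n = 3), above 98.6% and 99.4% of all genes by group mean. In the libraries labelled knockout it was followed by Fgfr1 at 98.7 ± 4.68, Fgfr4 at 76.2 ± 10.9 and Spry1 at 58.2 ± 19.3 CPM per kilobase. In those labelled wild type the order by mean was Spry1 at 144.2 ± 28.9, Fgfr4 at 132.1 ± 4.74 and Fgfr1 at 104.5 ± 14.2 CPM per kilobase. Fgfr4 was below Fgfr1 in both knockout libraries and above it in all 3 wild type libraries. Spry1 was below Fgfr4 and Fgfr1 in both knockout libraries, while in wild type it was above both in libraries 1 and 3 and below both in library 2.

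Met and Sdc3 were far lower and near the middle of all genes. Met had 5.56 ± 0.543 CPM per kilobase in knockout and 5.85 ± 0.801 in wild type, and Sdc3 had 3.86 ± 1.41 in knockout and 6.08 ± 0.869 in wild type. By group mean these were above 44.0% and 45.2% of all genes for Met, and above 33.5% and 46.4% for Sdc3. Sdc3 was below Met in both knockout libraries and slightly above it within each of the 3 wild type libraries, at 6.14 against 5.67, 5.18 against 5.14 and 6.92 against 6.72 CPM per kilobase. Those wild type differences were smaller than the spread of either gene between libraries.

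**Figure D3:**
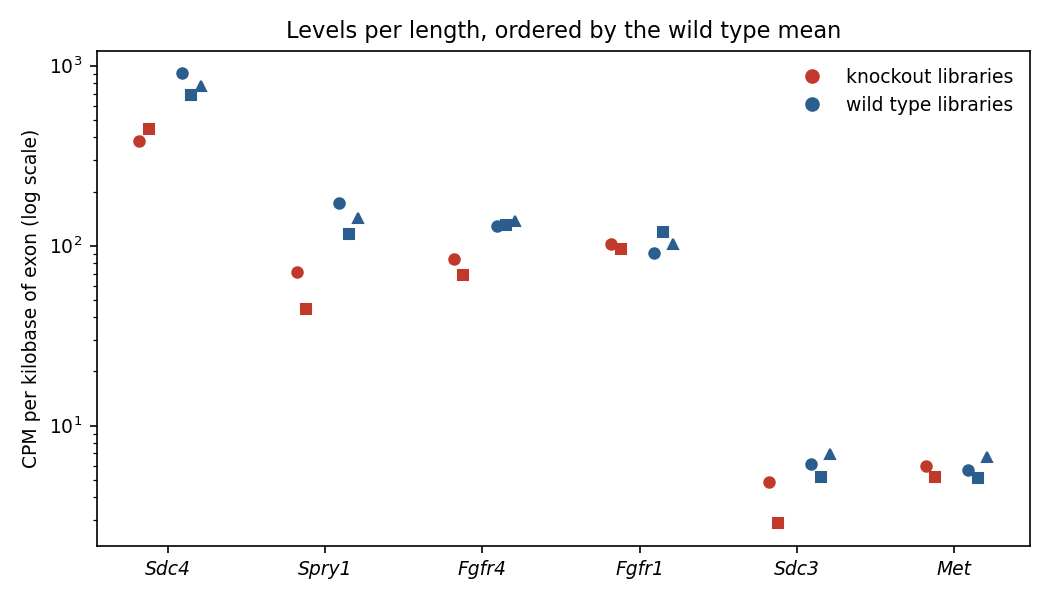
CPM per kilobase of exon (vertical axis, log scale) of the 6 genes in each library, knockout in red left of wild type in blue, ordered by the wild type mean, with circles, squares and triangles for libraries 1, 2 and 3. Sdc4 is highest in all 5 libraries, and Met and Sdc3 lie far below the other genes.

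A ratio of 2 genes within a library does not depend on how libraries are scaled. The count of Fgfr4 over that of Fgfr1 was 0.359 and 0.313 in knockout 1 and 2, against 0.615, 0.473 and 0.587 in wild type 1 to 3. The groups did not overlap, and on the log2 scale the ratio averaged -1.58 ± 0.14 in knockout and -0.85 ± 0.20 in wild type. The difference was -0.73, with an exact two-sided permutation p of 0.2 over the libraries, which is the smallest p that 2 against 3 libraries allow. Spry1 over Fgfr1 was 0.252 and 0.167 in knockout, against 0.679, 0.347 and 0.501 in wild type, a log2 difference of -1.26 with the same exact permutation p of 0.2. With 4 ratios tested, the adjusted p of both was 0.4 (Benjamini-Hochberg, exact permutation test). A difference in these ratios therefore could not pass 0.05 in this design.

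The other ratios overlapped between the groups. Met over Fgfr1 was 0.0552 and 0.0515 in knockout, against 0.0586, 0.0407 and 0.0622 in wild type (log2 difference 0.01, exact permutation p = 1). Sdc4 over Sdc3 was 33.3 and 65.4 in knockout, against 62.9, 56.6 and 47.7 in wild type (log2 difference -0.25, exact permutation p = 0.8). The knockout libraries lay on either side of all wild type libraries there, so no direction between the syndecans can be read.

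**Figure D4:**
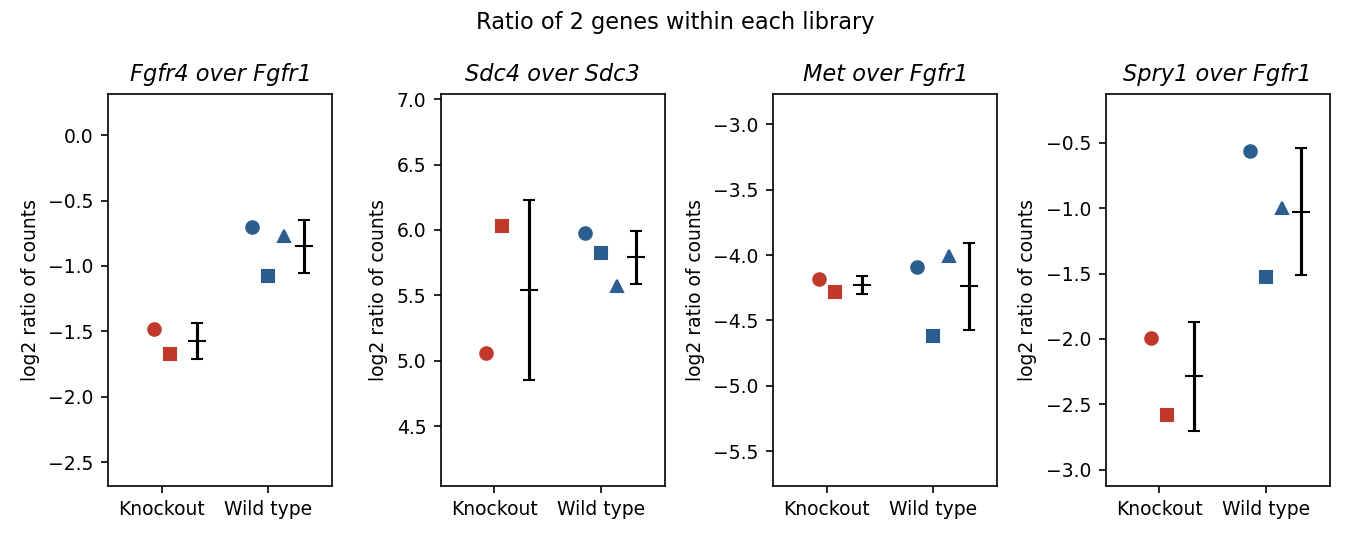
Log2 ratio of the counts of 2 genes within each library (vertical axes, each spanning the same range), knockout in red left of wild type in blue, with circles, squares and triangles for libraries 1, 2 and 3 and the group mean and SD in black. Knockout lies below wild type for Fgfr4 over Fgfr1 and Spry1 over Fgfr1 and overlaps it for the other ratios.

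The patterns of the 6 genes over the libraries were compared by the root mean square difference of their centred log2 CPM. Fgfr4 was closest to Sdc3 (0.19) and Sdc4 (0.22), and Fgfr1 to Met (0.21), whereas Fgfr1 and Spry1 were the farthest apart (0.71). Among 6339 other named genes with at least 20 CPM on average, the nearest to Fgfr4 were Timm22, Pcnx and Col5a2 (0.03 to 0.04). The nearest to Sdc4 was Cxcl3, a chemokine (0.02), followed by Col12a1 and Dpp9, and those to Sdc3 were Actg1, Eri3 and Ncln. Spry1 had no neighbour as near, but its median distance to all 6339 genes was also the largest, at 0.73. Those medians ran from 0.28 for Fgfr1 to 0.51 for Sdc4 among the others, so the distances of different genes are not on a common scale. The nearest to Spry1 were P3h4, Pcdhgc4 and Gas1, a growth arrest gene, at 0.11 each. Pcdhgc4 (log2 fold change -1.24, edgeR adjusted p = 0.0142) and Gas1 (-1.398, edgeR adjusted p = 0.0120) were called lower in knockout, and P3h4 was not. The profiles include the difference between the groups, so a fold change near that of Spry1 follows from the choice of neighbours. Slc4a7, Atf7 and Srcap were nearest to Fgfr1, and Sema3b, Map1lc3b and Tef to Met. With so few libraries and so many genes, near matches are many, and likeness here says nothing of a shared function.

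Of 172 other genes of the pathway in 12 lists, 142 were measured. 6 of them were called lower in the libraries labelled knockout (4.23%, beside 1.05% of all genes) and 4 higher (2.82%, beside 1.00%), and 132 passed neither way. Their median log2 fold change was -0.10. The lists were written with earlier results in view, and some of the genes in them had been reported as called.

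Ligands were sparse. 4 of 14 FGF ligand genes were measured, and none passed the test. Fgf1 had 14.03 and 7.3 CPM in knockout, against 3.6, 1.9 and 7.8 CPM in wild type (log2 fold change 1.29, edgeR adjusted p = 0.220), and Fgf13, a member that stays inside the cell, had 9.2 and 5.7 CPM in knockout, against 14.1, 9.8 and 12.7 CPM in wild type (-0.67, edgeR adjusted p = 0.372). Fgf11 and Fgf16 were each at a log2 fold change of 0.20. Hgf and the other 10 FGF ligands were not analysed here.

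Genes that release or activate HGF moved in different directions. Of 7 measured, 2 were called lower and 1 higher, beside 1.05% and 1.00% of all genes. 4 were not called, and the median log2 fold change was -0.14. Plaur, the receptor of the urokinase that can activate HGF, had 103.4 and 115.8 CPM in knockout, against 207.0, 162.9 and 230.0 CPM in wild type (-0.87, edgeR adjusted p = 0.0459). Nos1 and Nos3 are nitric oxide synthases, and nitric oxide is known, from rat muscle, to release HGF from the matrix. Nos3, the endothelial form, had 78.4 and 62.7 CPM in knockout, against 36.3, 36.6 and 31.0 CPM in wild type (1.03, edgeR adjusted p = 0.0287), and it was higher beside the higher endothelial markers given above. Nos1 rests on 2 counts over the knockout libraries and 1020 over the wild type libraries, so its ratio of 0.0320 is poorly known (95% counting interval 0.00387 to 0.116, edgeR adjusted p = 0.0155).

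Other FGF receptors and co-receptors gave 0 calls among 5 measured genes, with a median of 0.11. Frs2, the docking protein that FGF receptors phosphorylate, had 15.6 and 9.2 CPM in knockout, against 20.1, 20.7 and 17.6 CPM in wild type (-0.61, edgeR adjusted p = 0.321), Ncam1 was at -0.35 and Fgfr3 at 0.32. 4 relatives of the 6 genes, named here after their values were seen, were not called. Sdc1 was at -0.02 (95% interval -0.57 to 0.52) and Sdc2 at -0.32 (-0.89 to 0.25), Fgfr2 at 0.11 (-0.85 to 1.06) and Spry2 at -0.06 (-0.72 to 0.60).

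Among 10 other heparan sulfate proteoglycans, 1 was called lower (beside 1.05% of all genes), 0 were higher and 9 passed neither way (median -0.24). The called gene was Tgfbr3, betaglycan, which binds TGF-beta and FGF2, with 168.4 and 130.1 CPM in knockout, against 358.1, 225.3 and 278.1 CPM in wild type (-0.94, edgeR adjusted p = 0.0477). The glypicans Gpc6 (-1.23, adjusted p = 0.145) and Gpc3 (0.93, adjusted p = 0.165) passed neither way in edgeR. Of 21 enzymes that build, trim or sulfate heparan sulfate, 0 were called and 15 had a log2 fold change below 0 (71.4%, beside 50.3% of all genes), with a median of -0.31. Ext2, which polymerises the chain, had a log2 fold change of -0.56 and Hs6st2, a sulfotransferase, of -0.66, while Hpse, the heparanase that cuts the chain, rests on 19 counts over the knockout libraries and 1311 over the wild type libraries (ratio 0.237, 95% counting interval 0.142 to 0.371, edgeR adjusted p = 0.108). Of 10 syndecan partners 0 were called (median -0.34). Itgb1, the beta 1 integrin subunit, had 209.7 and 224.9 CPM in knockout, against 380.5, 299.8 and 342.4 CPM in wild type (-0.65, edgeR adjusted p = 0.0756), Actn4 was at -0.65 and Sdcbp2, a syntenin, at 0.91. Itgb1 and Actn4 were called with DESeq2 and without wild type 2, and Hpse with DESeq2 and with the library number as a block.

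The kinases below the receptors gave no call by edgeR with TMM factors and all libraries. Of 12 adaptors and Ras activators, 15 kinases and scaffolds from Ras to ERK and 9 genes of the p38 branch, 0 passed in either direction, and their median log2 fold changes were -0.10, 0.13 and -0.17. Values nearest to a call were those of Gab2 (1.19, edgeR adjusted p = 0.0753), with Grb2 at -0.23 and Crk at -0.26 next in that list. Among the kinases and scaffolds from Ras to ERK, Mapk3 was at 0.37 with an edgeR adjusted p of 0.321 and Nras at 0.32. In the p38 branch Mapk12 was at 0.99 (edgeR adjusted p = 0.0847), Carm1 at -1.09 (0.0929) and Map2k6 at -1.77, on 15 counts over the knockout libraries. Gab2, Mapk12 and Carm1 were called with DESeq2, and Mapk12 also with the library number as a block.

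Of 18 feedback inhibitors other than Spry1, 0 were called in either direction by edgeR with TMM factors and all libraries, 13 had a log2 fold change below 0 (72.2%, beside 50.3% of all genes) and the median was -0.13. Errfi1, an inhibitor of EGF receptors, had 2981 and 4005 CPM in knockout, against 7134, 5425 and 5688 CPM in wild type (-0.80, edgeR adjusted p = 0.0544). It was called with DESeq2, at least 10 counts in every library, thinning, the replicate block and without wild type 2, and in no other setting. Dusp6, the phosphatase of ERK, had 10.2 and 16.9 CPM in knockout, against 36.6, 21.8 and 24.7 CPM in wild type (-1.08, edgeR adjusted p = 0.0998). Of the other settings only DESeq2 called Dusp6, and Dusp5, named after its values were seen, was called with the replicate block. Spry4, another Sprouty, had 43.0 and 29.6 CPM in knockout, against 77.5, 44.3 and 71.3 CPM in wild type (-0.81, edgeR adjusted p = 0.122). In 7 of the 18, Errfi1, Dusp6, Dusp5 and Spry4 among them, both knockout libraries lay below all wild type libraries, against 20.4% of all genes. In 3 of the 18 they lay above, against 18.1% of all genes.

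Of 12 measured ERK targets, 2 were called lower and 1 was called higher, beside 1.05% and 1.00% of all genes. 9 passed neither way, and the median was -0.40. Egr1, an early growth response factor, had 4141 and 2875 CPM in knockout, against 6844, 7081 and 5884 CPM in wild type (-0.91, edgeR adjusted p = 0.0376). Ccnd1, cyclin D1, had 14.2 and 7.6 CPM in knockout, against 29.7, 26.7 and 31.3 CPM in wild type (-1.36, edgeR adjusted p = 0.0457). Elk3, an ETS factor, went the other way, with 67.0 and 68.1 CPM in knockout, against 28.5, 34.3 and 22.7 CPM in wild type (1.25, edgeR adjusted p = 0.0189). 11 of the 12 had a log2 fold change below 0 (91.7%, beside 50.3% of all genes). In 7 the libraries labelled knockout all lay below the others, against 20.4% of all genes, and in 1 all lay above, against 18.1%.

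Among 19 other receptor tyrosine kinases, 1 was called lower and 2 were called higher, beside 1.05% and 1.00% of all genes. 16 were not called, and the median was 0.17. Egfr, the EGF receptor, had 132.4 and 106.9 CPM in knockout, against 269.2, 248.6 and 238.7 CPM in wild type (-1.07, edgeR adjusted p = 0.0152). Erbb2, its relative, had 37.3 and 39.4 CPM in knockout, against 15.4, 14.3 and 16.4 CPM in wild type (1.32, edgeR adjusted p = 0.0206). Flt1, a VEGF receptor of endothelial cells, had 277.7 and 220.8 CPM in knockout, against 148.2, 109.0 and 125.7 CPM in wild type (0.97, edgeR adjusted p = 0.0251), beside the higher endothelial markers. The calls of the lists depended on the libraries too: without wild type 3, 0 were called in either direction, and without wild type 1, 1 was called lower (Egfr) and 1 higher (Flt1). Without knockout 1 the calls of Nos1, Nos3, Plaur, Tgfbr3 and Flt1 were lost, without knockout 2 those of Plaur, Tgfbr3, Egr1, Ccnd1, Egfr and Erbb2, and without wild type 2 that of Ccnd1.

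**Figure D5:**
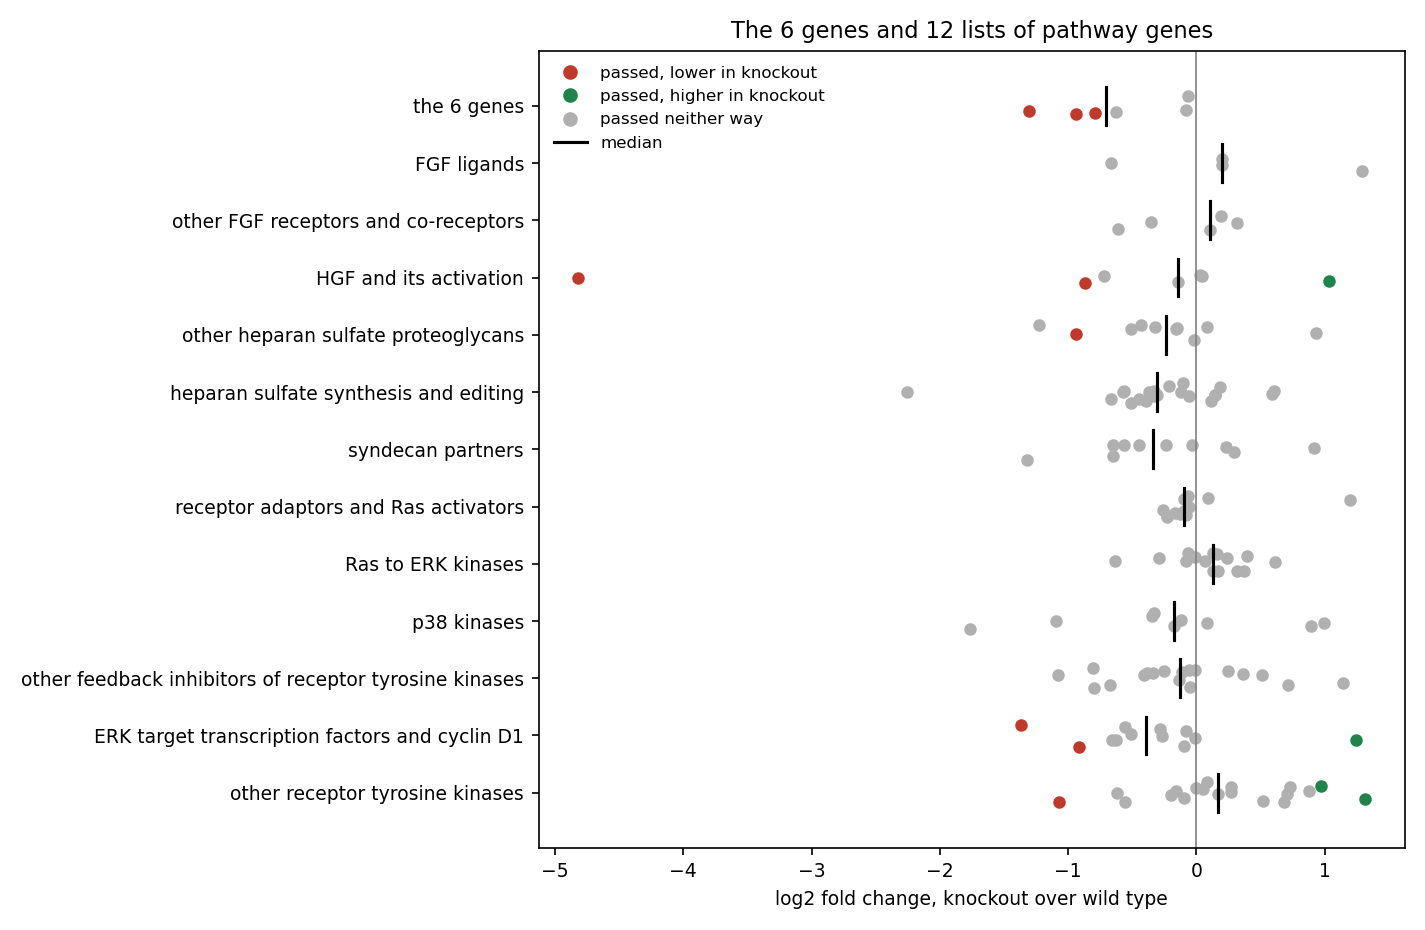
Log2 fold change, knockout over wild type (horizontal axis), of each measured gene (points, spread vertically for legibility) in the set of 6 and in 12 lists, with medians as black bars, red for genes called lower and green for genes called higher in the libraries labelled knockout. The 6 genes have the lowest median, -0.71, and the 10 calls in the lists fall in 4 of the 12, with Nos1, on 2 knockout counts, at the far left.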

How the data were processed

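The authors deposited raw counts per gene with exon coordinates and lengths. The submitters' processing notes name build mm10 and, without versions, STAR, edgeR, Trim Galore and featureCounts (Subread). The annotation release and the use of strand are not stated, so reads of overlapping genes on opposite strands cannot be told apart. Per the labels' protocols, 100 pg of RNA was copied with oligo(dT) priming, amplified for 13 to 15 cycles and read as 101 bp pairs. The table had been filtered before deposit: the third-highest CPM of a gene was never below 3.02.

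Counts were analysed in R 4.3.3 with edgeR 4.0.16 (filterByExpr, which removed no gene, TMM, glmQLFit and glmQLFTest, two-sided, 14 degrees of freedom), without a replicate block. Fold changes are knockout over wild type and intervals are 95%. Counting intervals are exact and cover counting error only. Alternatives were other scalings, DESeq2 1.42.0, limma-voom (limma 3.58.1), filters, thinning, a block and each library left out. The script was tested on simulated data. The members, lists and alternatives were chosen with earlier results of these data known. Genes named were the 6, Stau1, Pax7, measured ligands, the 3 smallest p per list (1 gene of these is not reported here) and 3 profile neighbours per gene (log2 CPM with a prior count of 2). Promoters came from RefSeq, where 5 of 6 genes matched. Replicates differed by more than sampling noise (chi-square per degree of freedom 17.7 to 258.5).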

Additional observations from a re-analysis of the deposited data

How the results depend on the processing

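The libraries labelled knockout were the shallower ones, which limits low genes most: 3 counts, the limit that a 0 allows, is 0.954 CPM in knockout 2 and 0.0290 CPM in wild type 1. With all 5 libraries, Spry1 and Sdc4 were called under every other scaling, the stricter filter, DESeq2 and thinning, and lost by limma-voom (-1.24 and -0.95). Omitting the filter repeated the main fit, because the filter removed no gene. With the replicate block both were called too, but wild type 3 adds nothing to the genotype difference in that fit. Fgfr4 was lost with total counts (-0.75) and limma-voom (-0.77). Over all genes tested, 118 genes were lower and 112 higher in knockout, against 433 and 457 with DESeq2 and 8 and 14 with limma-voom, and 11 to 176 and 23 to 172 with a library left out. The pathway lists had 6 lower and 4 higher calls, against 3 lower with total counts, 16 and 9 with DESeq2 and 1 and 0 with limma-voom, and 0 to 8 and 0 to 4 with a library left out. Leaving out a library gave -1.69 to -1.01 for Spry1, -1.05 to -0.82 for Sdc4, -0.95 to -0.65 for Fgfr4, -1.08 to -0.32 for Sdc3, -0.18 to 0.05 for Met and -0.16 to 0.03 for Fgfr1. Met turned to 0.024 without knockout 2 and 0.053 without wild type 3, and Fgfr1 to 0.025 without wild type 2. The ratio of Sdc4 to Sdc3 ranged from -0.73 to 0.24 and turned to 0.24 without knockout 1. That of Met to Fgfr1 ranged from -0.18 to 0.13 and turned to -0.00236 after thinning, -0.04 without knockout 1 and -0.18 without wild type 2. The cause of these changes was not tested.

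The numbers in the titles pair 2 libraries, and nothing says that a number marks a shared animal or day. Deviations of same-numbered libraries from their group means correlated at 0.05 and 0.04 over genes. With the replicate number as a block, 288 genes were lower and 324 higher, 11 and 7 in the lists, Met turned to 0.0396, and Spry1, Sdc4 and Fgfr4 remained called. Wild type 3 shares its number with no other library, so the genotype difference in that fit rests on the paired libraries alone. Without wild type 3 and without a block, Spry1, Sdc4 and Fgfr4 lost the call.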
